A study of Mus musculus with 8 samples.

Results

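The genes described here are 50 named genes that carry cells through mitosis and cytokinesis: the cyclins and kinases that start mitosis, the motors and adaptors of the spindle, the kinetochore and its checkpoint, the chromosomal passenger complex, condensin, the machinery of the cleavage furrow, and a pair of transcription factors that switch such genes on. They were chosen by name from a table of read counts that lists 24421 genes. All 50 are listed there, and all 50 passed the filter on low counts among the 12744 genes that were tested. Other lists served for comparison, with 112 further mitotic genes and 38 genes of DNA replication.

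The cells were mouse haematopoietic stem and progenitor cells (HSPCs), harvested from animals that had received a primary transplant, and their total RNA was sequenced. The double knockout (dKO) lacks beta-catenin and Hoxa9, as the series title names the genes. The 4 groups held 2 libraries each. WT_EV was wild type with an empty vector, dKO_EV was dKO with an empty vector, dKO_MUT was dKO with an enzymatically dead mutant of PRMT1, and dKO_PRMT1 was dKO with wild-type PRMT1. PRMT1 is the main enzyme that places asymmetric dimethyl marks on arginine. All 4 groups were transduced, so none shows untransduced cells. Nothing in the sources used here tells the type of vector, the way transduced cells were selected, the animals' ages, the driver of the deletion or whether replicates came from separate animals. The p-values therefore rest on a spread that may be purely technical. The study's design asks what ectopic PRMT1 does to expression in dKO cells.

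Mitotic genes are transcribed in waves. The replication genes come first, and the genes for spindle assembly and division follow in G2, when FOXM1 and the MYBL2-MuvB complex bind them. Their promoters often carry a short element called the CHR (cell cycle genes homology region) together with CCAAT boxes that bind NF-Y. At mitosis, cyclin B and CDK1 trigger entry, condensin compacts the chromosomes, kinetochores attach them to microtubules, the checkpoint holds anaphase back until all are attached, and the central spindle then places the cleavage furrow. In marrow, committed granulocyte and erythroid precursors divide often, whereas the most primitive stem cells are mostly quiescent.

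The promoters of the genes were read first, since they show which of these elements the group shares. RefSeq entries (GRCm38.p6) were found for 42 of the 50 genes, with 45 start sites in all, and the 250 bases before each start were searched on both strands. The CHR was searched as TTTGAA or TTCGAA, the CCAAT box as CCAAT, and E2F sites in the forms TTTCCCGC, TTTGGCGC, TTTCGCGC and TTTGCCGC. No CHR, CCAAT or E2F match overlapped a match of a different motif in these 45 windows. In the Ube2c window, CCAAT matches on opposite strands, first bases at -186 and -183 from the start, shared bases with each other. The 6 promoters below are shown because, of the genes with a CHR, these had the smallest p in dKO_PRMT1 against dKO_EV, and they show the element with CCAAT boxes and, in the Kif2c window, without one. The Kif2c window lies before an internal start, inside the counted gene (chr4:117159633-117182624). The stretch before the 5′ end of that gene was not read. They stand 5′ to 3′ on the gene's strand, with every match in capitals. ATTGG is CCAAT on the opposite strand, and TTCAAA is TTTGAA there. The windows are chr7:135716380-135716629, minus strand for Mki67, chr19:37376132-37376381, plus strand for Kif11, chr6:125191587-125191836, minus strand for Ncapd2, chr4:52438971-52439220, plus strand for Smc2, chr4:117178773-117179022, minus strand for Kif2c and chr10:69352913-69353162, minus strand for Cdk1.
Mki67: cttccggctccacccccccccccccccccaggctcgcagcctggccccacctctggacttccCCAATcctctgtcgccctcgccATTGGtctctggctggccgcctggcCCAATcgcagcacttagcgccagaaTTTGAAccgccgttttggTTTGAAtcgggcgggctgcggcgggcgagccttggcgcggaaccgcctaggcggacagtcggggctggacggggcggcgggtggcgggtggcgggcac
Kif11: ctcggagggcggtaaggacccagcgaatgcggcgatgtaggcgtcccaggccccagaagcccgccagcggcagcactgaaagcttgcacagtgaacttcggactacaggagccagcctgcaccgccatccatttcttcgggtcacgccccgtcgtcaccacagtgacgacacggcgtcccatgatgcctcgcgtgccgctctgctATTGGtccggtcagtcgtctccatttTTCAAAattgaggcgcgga
Ncapd2: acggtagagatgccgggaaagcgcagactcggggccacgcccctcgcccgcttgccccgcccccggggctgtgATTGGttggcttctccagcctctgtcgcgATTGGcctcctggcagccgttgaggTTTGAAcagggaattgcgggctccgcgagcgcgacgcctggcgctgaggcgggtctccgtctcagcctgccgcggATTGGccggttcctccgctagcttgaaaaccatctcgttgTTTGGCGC
Smc2: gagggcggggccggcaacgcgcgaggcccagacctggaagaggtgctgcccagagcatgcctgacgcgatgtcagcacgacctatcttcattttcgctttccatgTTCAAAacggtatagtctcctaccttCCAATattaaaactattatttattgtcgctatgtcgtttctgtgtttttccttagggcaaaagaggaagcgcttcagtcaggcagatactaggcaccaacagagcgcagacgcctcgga
Kif2c: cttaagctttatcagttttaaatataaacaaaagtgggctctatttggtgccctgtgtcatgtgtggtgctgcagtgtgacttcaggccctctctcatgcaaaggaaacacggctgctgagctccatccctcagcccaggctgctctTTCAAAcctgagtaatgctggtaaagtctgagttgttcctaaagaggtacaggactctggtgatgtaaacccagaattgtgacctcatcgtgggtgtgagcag
Cdk1: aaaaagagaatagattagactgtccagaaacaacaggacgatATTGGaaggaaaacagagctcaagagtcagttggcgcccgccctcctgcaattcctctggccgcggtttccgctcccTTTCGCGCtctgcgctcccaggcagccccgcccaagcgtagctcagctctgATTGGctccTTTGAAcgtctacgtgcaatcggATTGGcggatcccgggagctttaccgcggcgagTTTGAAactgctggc

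A CHR was present in 18 of the 45 windows (40%), against 17.1% of 32851 windows over all genes. CCAAT was present in 73.3% of the windows of mitotic genes and in 33.8% of all windows. Both elements stood together in 37.8%, against 6.02% of all, and 46.7% held at least 2 CCAAT boxes, against 10.1%. The E2F forms were rarer, at 6.67% against 1.86%. Of the 18 windows with a CHR, 10 had it within 100 bases of the start, as in Kif11 and Cdk1. The promoter of Top2a, the DNA topoisomerase that disentangles chromosomes, held 4 CHR matches and 6 CCAAT boxes. The median log2 fold change of dKO_PRMT1 against dKO_EV was 0.17 over the 16 genes with a CHR, of which 10 were called, and 0.18 over the 26 without, of which 7 were called. In dKO_EV against WT_EV the medians were -0.091 with a CHR (4 of 16 called) and -0.051 without (1 of 26 called). In dKO_MUT against dKO_EV they were 0.081 (1 of 16) and 0.073 (3 of 26), and in dKO_PRMT1 against dKO_MUT 0.081 (2 of 16) and 0.081 (2 of 26). Over all genes tested, 5.96% were called higher in dKO_PRMT1 against dKO_EV and 7.0% lower in dKO_EV against WT_EV. The shares called higher were 4.24% in dKO_MUT against dKO_EV and 1.43% in dKO_PRMT1 against dKO_MUT. No difference between genes with and without a CHR was tested, so these counts are not a result about the CHR. The CHR, CCAAT and E2F hits are matches of letters in fixed windows, and binding was not measured.

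Library totals ran from 15531344 to 22329749 counts. Levels below are CPM, counts scaled to library size by TMM. Each comparison is given as a log2 fold change ± its standard error, with n = 2 libraries a group. "Rose" and "fell" are kept for genes whose p from the quasi-likelihood test of edgeR, after Benjamini-Hochberg adjustment across the 12744 genes, was under 0.05. The labels were checked first. Prmt1 stood at 188 and 192 CPM in WT_EV, 189.7 and 194 in dKO_EV, 1744 and 1758 in dKO_MUT and 981 and 976 in dKO_PRMT1. PRMT2 is the name in the genotype label of the second dKO_MUT library, but its Prmt1 level was like that of the first, and Prmt2 stood at 3.45 and 3.96 CPM in the 2 libraries. Hoxa9 stood at 18.2 and 17.2 CPM in WT_EV, 5.79 and 3.63 in dKO_EV, 4.85 and 1.95 in dKO_MUT and 3.76 and 1.87 in dKO_PRMT1. Ctnnb1, the beta-catenin gene, fell in dKO_EV against WT_EV, with a log2 fold change of -0.23 ± 0.040, and the sources used here do not say which part of the gene was deleted. The progenitor genes Kit and Cd34 were present in every library, at means of 154.6 and 134.5 CPM. Hba-a1, Hbb-bt and Cd3e, of red cells and T cells, had 0 counts in all 8. Xist was read only in the WT_EV libraries and the Y-linked Ddx3y only in the 6 dKO libraries, so genotype and sex cannot be told apart in any comparison with WT_EV.

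Across the 4 groups the summed level of the 50 mitotic genes formed a shallow series, lowest in dKO_EV and highest in dKO_PRMT1. It was 6960 to 6979 CPM in WT_EV, 6607 to 6761 in dKO_EV, 7012 to 7170 in dKO_MUT and 7504 to 7510 in dKO_PRMT1. The 4 ranges did not overlap. By role, the mean sum was highest in dKO_PRMT1 throughout. It was lowest in dKO_EV except for the anaphase genes, which were lowest in WT_EV (403 CPM against 412 in dKO_EV). For the cyclin and CDK1 genes, dKO_EV and dKO_MUT were level, at 708 CPM each. The mean of dKO_PRMT1 was the highest of the 4 in 43 of the 50 genes, against 25.7% of all genes tested, and that of dKO_EV the lowest in 31, against 25.4%. Both dKO_PRMT1 libraries stood above all 6 others for 17 of the 50 genes, against 8.26% of all genes. Both dKO_EV libraries stood below all 6 others for 14, against 6.72%. WT_EV was the highest group for 1 gene, Mad2l1. In bulk RNA, a smaller share of cells in mitosis and less of these transcripts per dividing cell cannot be told apart.

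**Figure D1:**
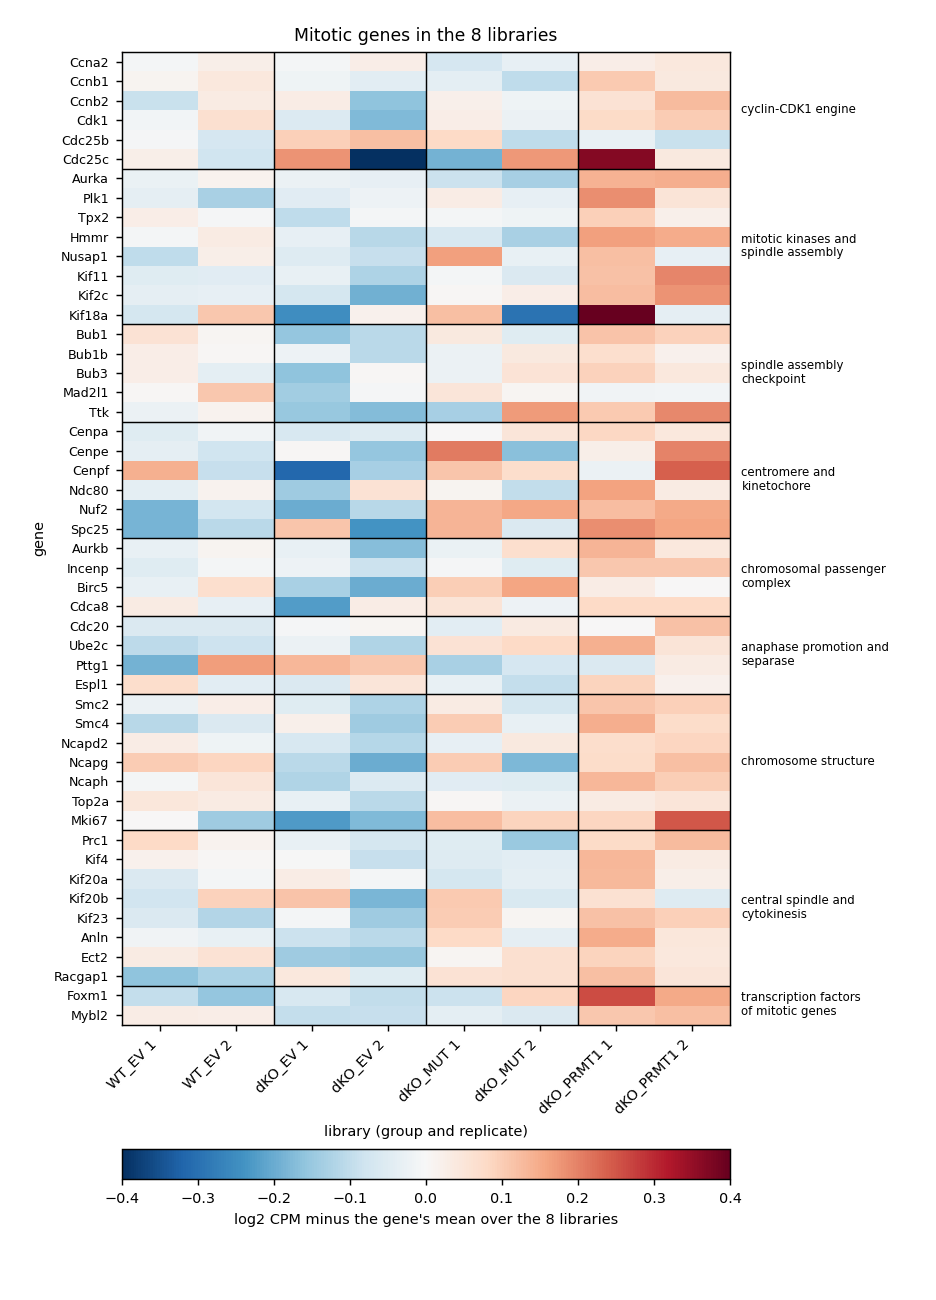
Level of each of the 50 mitotic genes (rows, grouped by role) in each of the 8 libraries (columns), as log2 CPM minus the gene's mean over the libraries; red is above and blue below that mean, and the colour scale ends at ±0.4, which Cdc25c and Kif18a pass. The dKO_PRMT1 columns are mostly red and the dKO_EV columns mostly blue, and 42 of the 50 genes had their highest library in dKO_PRMT1.

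Markers of blood lineages also differed between the groups, each list in its own order. Primary granule genes of granulocyte precursors, 7 of 8 of which are listed, summed to 9889 to 10110 CPM in WT_EV, 10330 to 10550 in dKO_EV, 13050 to 13580 in dKO_MUT and 15720 to 15740 in dKO_PRMT1. All 7 rose in dKO_PRMT1 over dKO_EV and over dKO_MUT, and 6 of 7 rose in dKO_MUT over dKO_EV. The 12 markers of stem cells and early progenitors summed to 1311 to 1319 CPM in WT_EV, 1168 to 1224 in dKO_EV, 1099 to 1120 in dKO_MUT and 1010 to 1022 in dKO_PRMT1. In dKO_EV over WT_EV, 4 of these 12 rose and 4 fell, with a median log2 fold change of 0.088, although the sum was lower. In dKO_PRMT1 over dKO_EV, 7 of the 12 fell and 2 rose. The 12 genes of later neutrophils summed to 8011 to 8194 CPM in WT_EV, 14200 to 15030 in dKO_EV, 18990 to 19110 in dKO_MUT and 16120 to 16420 in dKO_PRMT1. All 12 rose in dKO_EV over WT_EV, and 10 of 12 fell in dKO_PRMT1 against dKO_MUT. In dKO_PRMT1 against dKO_EV, 5 of the 12 rose and 4 fell, with a median log2 fold change of 0.037. The 10 markers of monocytes and macrophages summed to 6798 to 6850 CPM in WT_EV, 5565 to 5575 in dKO_EV, 4556 to 4642 in dKO_MUT and 4640 to 4684 in dKO_PRMT1. The 8 of mast cells, basophils and eosinophils summed to 1455 to 1485, 904 to 936, 950.5 to 989 and 662 to 677 CPM in the same order of groups. The 6 of megakaryocytes and platelets summed to 289.8 to 304, 342 to 354, 219 to 223 and 190.3 to 194 CPM. The 7 erythroid markers were low, at 61.2 to 63.6, 31.8 to 33.7, 23.0 to 25.9 and 15.1 to 17.9 CPM, and 3 of the 5 tested fell in dKO_PRMT1 over dKO_EV. The B cell and T cell lists each summed to under 2 CPM in every library. Which of these lists is highest or lowest in dKO_PRMT1 thus differs, and their part in the differences of the mitotic genes was not tested.

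**Figure D2:**
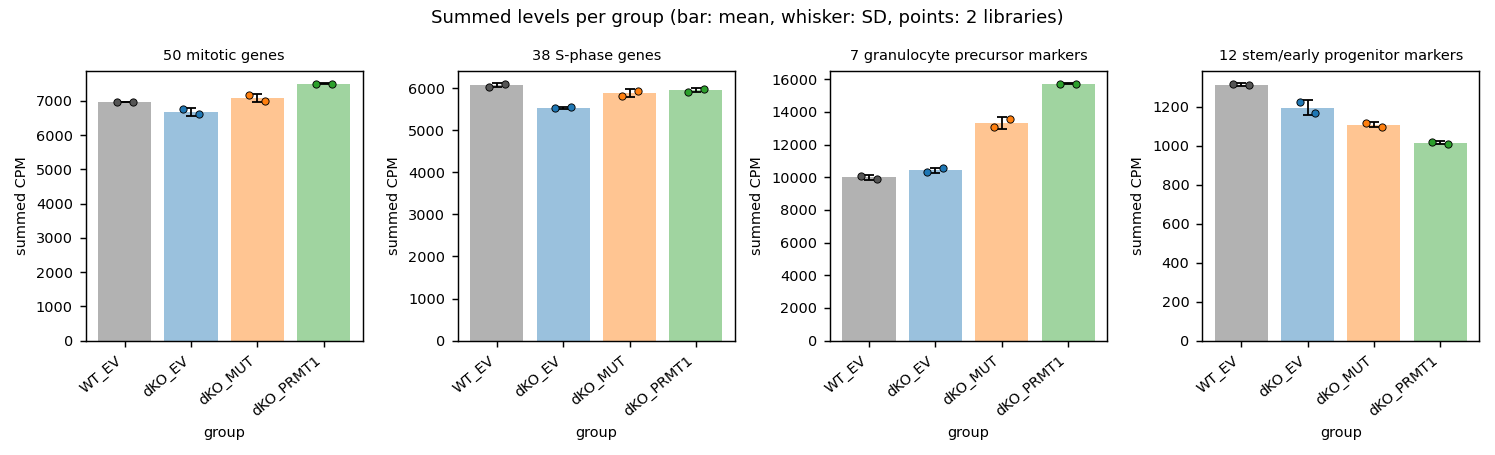
Summed CPM (vertical axes, from 0) of the 50 mitotic genes, 38 replication genes, 7 granulocyte precursor markers and 12 stem and early progenitor markers in the 4 groups; bars are means, whiskers SD and points the 2 libraries. The mitotic genes run from 6607 to 7510 CPM, the granulocyte precursor markers from 9889 to 15740, and the stem and early progenitor markers from 1319 down to 1010. Single genes of the stem and early progenitor list went both ways.

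The 2 libraries of a group differed little in these genes. The median absolute difference between replicates over the 50 genes was 0.048 log2 units in WT_EV, 0.082 in dKO_EV, 0.062 in dKO_MUT and 0.061 in dKO_PRMT1. Over all genes it was 0.082 to 0.12. The median standard error of a fold change over the 50 genes was 0.065 in dKO_PRMT1 against dKO_EV, ranging from 0.036 to 0.17. The widest errors belonged to the genes with the lowest counts. Cdc25c, a phosphatase that activates CDK1, ranged 1.84-fold between its lowest and highest library, and Kif18a, a kinesin that limits chromosome oscillation, 1.63-fold. Ccna2, the cyclin of S phase and G2, was the flattest, at 1.08-fold. Per kilobase of transcript, the levels averaged over the 8 libraries ran from 6.02 CPM for Kif18a to 161 for Ube2c, the ubiquitin-conjugating enzyme of the anaphase-promoting complex, with Top2a next at 141.

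In dKO_PRMT1 against dKO_EV, 21 of the 50 genes rose and none fell. The background over all genes was 5.96% higher and 8.67% lower. The fold change was positive for 48 of the 50, with a median of 0.17 (1.13-fold) against 0 over all genes. Both dKO_PRMT1 libraries stood above both dKO_EV libraries for 39 genes, against 25.8% of all genes. The largest increase among the called genes was 29.3%. The count of called genes rested on single libraries, falling from 21 to 11 when dKO_EV replicate 2 was left out, to 6 when dKO_PRMT1 replicate 1 was, and to 8 when dKO_PRMT1 replicate 2 was. Mki67, Kif11 and Nuf2 were called in each of the 8 fits that left out 1 library. DESeq2 called 17 of the 21, losing Ttk, Aurkb, Ncapg and Ncaph (adjusted p 0.056 to 0.0745), and the fit of the 2 groups alone called 16, losing Ttk, Aurkb, Ube2c, Ncaph and Top2a (0.0511 to 0.0734).

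**Figure D3:**
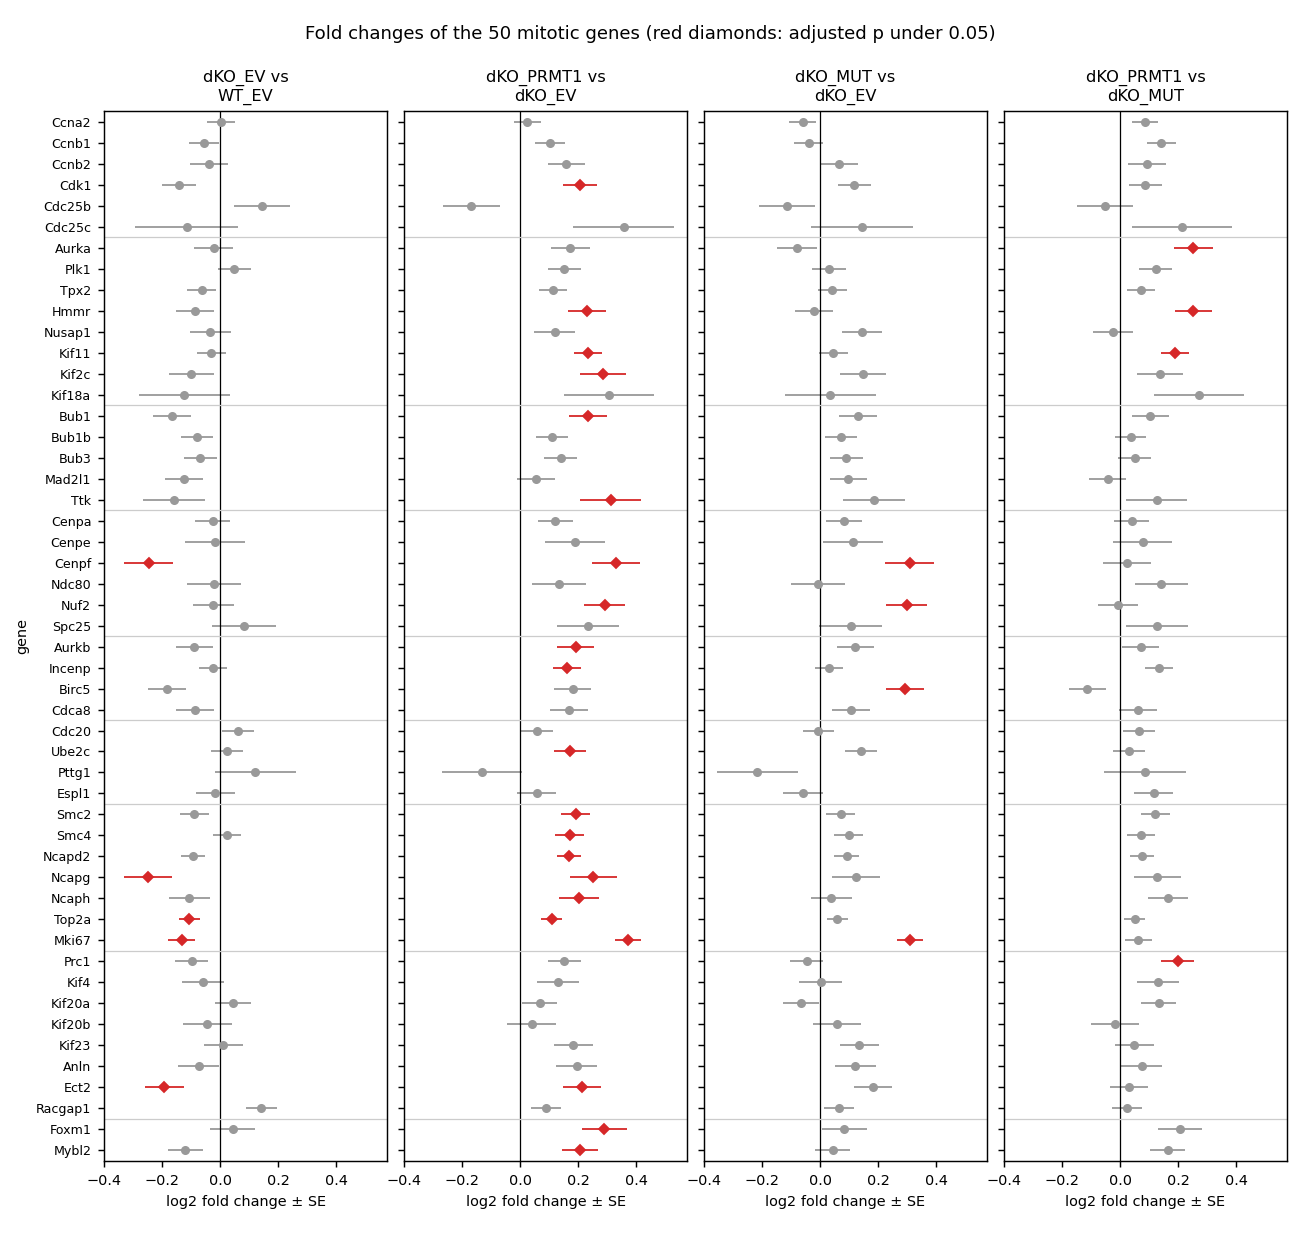
Log2 fold change ± standard error (horizontal axis) of each of the 50 mitotic genes (rows) in 4 comparisons (panels); red diamonds have an adjusted p under 0.05 and grey circles do not. In dKO_PRMT1 against dKO_EV, 48 of the 50 points lie right of 0 and 21 are called, while dKO_EV against WT_EV has 5 called points, all left of 0.

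The chromosome structure genes were called as a complete group, 7 of 7. Mki67 (chromosome 7, 135689788 to 135716379, GRCm38), which coats mitotic chromosomes and keeps them apart, stood at 566 and 512 CPM in WT_EV, 483 and 500.3 in dKO_EV, 617 and 602 in dKO_MUT and 601 and 672 in dKO_PRMT1. Its dKO_EV libraries were the lowest of the 8, and the dKO_MUT and dKO_PRMT1 libraries were all above WT_EV. It rose by 0.37 ± 0.046 over dKO_EV (1.29-fold, adjusted p = 3.43e-07) and held at an adjusted p of at most 0.00435 without dKO_EV replicate 1. Top2a, the most abundant of the 50, stood at 758 and 751 CPM in WT_EV, 720.3 and 681 in dKO_EV, 737 and 722 in dKO_MUT and 751 and 759.6 in dKO_PRMT1. It rose by 0.11 ± 0.036 (adjusted p = 0.0352), to a level that overlapped WT_EV.

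The other 5 of these genes encode condensin, the ring complexes that compact mitotic chromosomes. Smc2, a core ATPase of both condensins, stood at 222 and 229 CPM in WT_EV, 218 and 207 in dKO_EV, 231 and 214 in dKO_MUT and 243 and 241 in dKO_PRMT1. Its partner Smc4 stood at 305 and 317 CPM in WT_EV, 334 and 298 in dKO_EV, 353 and 323 in dKO_MUT and 365 and 346 in dKO_PRMT1. In both, the dKO_PRMT1 libraries were above dKO_EV, while dKO_EV and WT_EV overlapped for Smc4 and not for Smc2. Ncapd2, a condensin I subunit, stood at 347 and 335 CPM in WT_EV, 325 and 314 in dKO_EV, 332 and 349 in dKO_MUT and 357 and 361 in dKO_PRMT1. Ncapg, of the same complex, stood at 75.0 and 74.2 CPM in WT_EV, 64.9 and 60.9 in dKO_EV, 74.9 and 61.7 in dKO_MUT and 73.6 and 76.0 in dKO_PRMT1. Ncaph, its kleisin, stood at 80.6 and 83.8 CPM in WT_EV, 74.5 and 78.1 in dKO_EV, 78.5 and 78.3 in dKO_MUT and 88.9 and 86.8 in dKO_PRMT1. All 3 were lowest in a dKO_EV library, and the 2 dKO_MUT libraries of Ncapg lay far apart. The increases over dKO_EV were 0.19 ± 0.049 for Smc2, 0.17 ± 0.049 for Smc4, 0.17 ± 0.042 for Ncapd2, 0.25 ± 0.082 for Ncapg and 0.20 ± 0.070 for Ncaph, at adjusted p from 0.00475 to 0.0458. Each of the 6 genes other than Mki67 lost its call without some library. The adjusted p reached 0.0641 without dKO_EV replicate 2 for Smc2, 0.283 without dKO_EV replicate 2 for Smc4, 0.0704 without dKO_PRMT1 replicate 2 for Ncapd2, 0.215 without dKO_PRMT1 replicate 2 for Ncapg, 0.236 without dKO_PRMT1 replicate 1 for Ncaph and 0.256 without dKO_EV replicate 2 for Top2a. Exons of Ncapg overlap those of Lcorl on the opposite strand, which averaged 15.7 CPM against 70.1 for Ncapg.

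Both transcription factors rose. Foxm1, the forkhead factor of G2 genes, stood at 67.2 and 64.6 CPM in WT_EV, 68.7 and 67.1 in dKO_EV, 67.7 and 76.3 in dKO_MUT and 86.1 and 79.9 in dKO_PRMT1. The dKO_PRMT1 libraries were above the other 6, which lay between 64.6 and 76.3. The increase over dKO_EV was 0.29 ± 0.077 (adjusted p = 0.00722). Mybl2, the MYB protein that binds MuvB, stood at 109 and 108 CPM in WT_EV, 99.7 and 99.9 in dKO_EV, 104 and 102 in dKO_MUT and 115 and 116 in dKO_PRMT1. Its dKO_PRMT1 libraries were again the highest and its dKO_EV libraries the lowest of the 8, and it rose by 0.21 ± 0.061 over dKO_EV (adjusted p = 0.0176). Both calls were lost without single libraries, at adjusted p of 0.147 without dKO_PRMT1 replicate 1 for Foxm1 and 0.13 without dKO_PRMT1 replicate 2 for Mybl2.

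Among the 6 genes of the cyclin and CDK1 engine, only Cdk1, the kinase that drives entry into mitosis, was called. It stood at 139 and 146 CPM in WT_EV, 135 and 124 in dKO_EV, 143 and 138 in dKO_MUT and 148 and 150.4 in dKO_PRMT1. Its dKO_EV libraries were the lowest of the 8 and its dKO_PRMT1 libraries the highest. The increase over dKO_EV was 0.21 ± 0.058 (adjusted p = 0.0117), and the call was lost without dKO_EV replicate 2 and without either dKO_PRMT1 library, at an adjusted p of up to 0.146 without dKO_EV replicate 2. Its partners did not pass the test. Ccnb1, the main mitotic cyclin, differed by 0.10 ± 0.051 (adjusted p = 0.199) and Ccnb2 by 0.16 ± 0.064 (adjusted p = 0.099). Ccna2 stood at 223 and 227 CPM in WT_EV, 223 and 228 in dKO_EV, 214 and 219 in dKO_MUT and 228 and 231 in dKO_PRMT1, with a difference of 0.024 ± 0.047 (adjusted p = 0.796). The phosphatases Cdc25b and Cdc25c lay on opposite sides of 0, at -0.17 ± 0.097 and 0.36 ± 0.17, with neither past the threshold.

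Of the 8 mitotic kinase and spindle assembly genes, 3 rose. Kif11, the kinesin that pushes the spindle poles apart, stood at 206 and 207 CPM in WT_EV, 209 and 195 in dKO_EV, 212 and 205 in dKO_MUT and 231 and 244 in dKO_PRMT1. The dKO_PRMT1 libraries were above the other 6. The increase over dKO_EV was 0.23 ± 0.049 (adjusted p = 0.00071), with an adjusted p of at most 0.0486 without dKO_PRMT1 replicate 2. Hmmr, a spindle adaptor that also binds hyaluronan, stood at 95.0 and 97.9 CPM in WT_EV, 93.4 and 88.4 in dKO_EV, 91.4 and 87.4 in dKO_MUT and 107 and 106 in dKO_PRMT1. Kif2c, a kinesin that depolymerises microtubules at centromeres, stood at 61.4 and 61.6 CPM in WT_EV, 60.0 and 55.1 in dKO_EV, 63.2 and 64.1 in dKO_MUT and 68.6 and 71.4 in dKO_PRMT1. Both had the same 2 libraries at the top. They rose by 0.23 ± 0.065 (adjusted p = 0.0128) and 0.29 ± 0.078 (adjusted p = 0.01), and the calls were lost, at adjusted p of 0.0987 without dKO_PRMT1 replicate 1 for Hmmr and 0.126 without dKO_PRMT1 replicate 2 for Kif2c. Aurka, the kinase of the spindle poles, differed by 0.17 ± 0.067 (adjusted p = 0.0872). Plk1, the polo kinase that acts from entry to exit, differed by 0.15 ± 0.057 (adjusted p = 0.0723).

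Kinetochore and checkpoint genes rose in part, 2 of 6 and 2 of 5. Nuf2, of the NDC80 complex that grips microtubules, stood at 74.2 and 80.2 CPM in WT_EV, 73.6 and 78.1 in dKO_EV, 92.8 and 93.9 in dKO_MUT and 91.9 and 93.8 in dKO_PRMT1. The 4 libraries with an insert lay together, above the 4 with an empty vector. The increase over dKO_EV was 0.29 ± 0.070 (adjusted p = 0.00286). Its partners in that complex did not pass, with 0.13 ± 0.092 for Ndc80 (adjusted p = 0.383) and 0.23 ± 0.11 for Spc25 (adjusted p = 0.161). Cenpf, a large protein of the outer kinetochore, stood at 93.0 and 79.0 CPM in WT_EV, 67.8 and 76.9 in dKO_EV, 91.1 and 88.5 in dKO_MUT and 82.9 and 99.5 in dKO_PRMT1. Its replicates were uneven in every group but dKO_MUT, and it rose by 0.33 ± 0.084 (adjusted p = 0.00531). Bub1, the checkpoint kinase at kinetochores, stood at 99.96 and 96.6 CPM in WT_EV, 86.2 and 89.0 in dKO_EV, 98.8 and 92.9 in dKO_MUT and 104 and 102 in dKO_PRMT1. Ttk, the kinase that starts checkpoint signalling, stood at 35.6 and 36.5 CPM in WT_EV, 32.5 and 32.1 in dKO_EV, 33.0 and 40.6 in dKO_MUT and 38.9 and 41.2 in dKO_PRMT1. Both had their dKO_EV libraries at the bottom. They rose by 0.23 ± 0.065 (adjusted p = 0.0115) and 0.31 ± 0.11 (adjusted p = 0.0434). The calls other than that of Nuf2 were lost without single libraries, at adjusted p up to 0.292 without dKO_PRMT1 replicate 2 for Cenpf, 0.0997 without dKO_PRMT1 replicate 1 for Bub1 and 0.281 without dKO_PRMT1 replicate 2 for Ttk. Bub3, the most abundant checkpoint gene, stood at 162 and 154 CPM in WT_EV, 142 and 159 in dKO_EV, 156 and 165 in dKO_MUT and 169 and 163 in dKO_PRMT1, and Cenpe, the kinesin of the kinetochore, at 109 and 106 CPM in WT_EV, 112 and 100.3 in dKO_EV, 129 and 99.5 in dKO_MUT and 113 and 128 in dKO_PRMT1. Neither passed, with differences of 0.14 ± 0.057 and 0.19 ± 0.10.

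In the chromosomal passenger complex, which corrects faulty attachments and then marks the central spindle, 2 of 4 rose. Incenp, its scaffold, stood at 205 and 211 CPM in WT_EV, 209 and 199.7 in dKO_EV, 212 and 205 in dKO_MUT and 229 and 229 in dKO_PRMT1. Aurkb, its kinase, stood at 114 and 118 CPM in WT_EV, 115 and 104 in dKO_EV, 115 and 123 in dKO_MUT and 129 and 120.4 in dKO_PRMT1. The dKO_PRMT1 libraries were the highest for Incenp, and overlapped dKO_MUT for Aurkb. The increases were 0.16 ± 0.048 (adjusted p = 0.0172) and 0.19 ± 0.063 (adjusted p = 0.0366). Both calls were lost, at adjusted p of 0.117 without dKO_EV replicate 2 for Incenp and 0.319 without dKO_PRMT1 replicate 1 for Aurkb. Birc5 and Cdca8, the subunits survivin and borealin, differed by 0.18 ± 0.065 (adjusted p = 0.0605) and 0.17 ± 0.065 (adjusted p = 0.0836).

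Of the 12 genes of mitotic exit 2 rose. Among the 4 of anaphase, Ube2c stood at 139 and 141 CPM in WT_EV, 148 and 138 in dKO_EV, 156 and 158 in dKO_MUT and 166 and 155 in dKO_PRMT1. Its dKO_PRMT1 libraries were above dKO_EV and overlapped dKO_MUT, and it rose by 0.17 ± 0.055 (adjusted p = 0.033, reaching 0.329 without dKO_PRMT1 replicate 1). Cdc20, the activator of the anaphase-promoting complex, stood at 146 and 146 CPM in WT_EV, 151 and 153 in dKO_EV, 147 and 156 in dKO_MUT and 152 and 165 in dKO_PRMT1, a difference of 0.058 ± 0.055 (adjusted p = 0.561). Its exons overlap those of Elovl1 on the opposite strand, which averaged 134 CPM. Of the 8 central spindle and cytokinesis genes 1 rose. Ect2, the exchange factor that activates RhoA at the furrow, stood at 95.5 and 96.9 CPM in WT_EV, 84.5 and 84.0 in dKO_EV, 93.7 and 97.3 in dKO_MUT and 99.2 and 95.9 in dKO_PRMT1. Its dKO_EV libraries were the lowest of the 8. The increase was 0.21 ± 0.066 (adjusted p = 0.0238, reaching 0.186 without dKO_PRMT1 replicate 1). Anln, a furrow scaffold, and Kif23, the kinesin of centralspindlin, missed the threshold at 0.19 ± 0.070 (adjusted p = 0.0583) and 0.18 ± 0.067 (adjusted p = 0.0605). Racgap1, the other subunit of centralspindlin, stood at 155 and 158 CPM in WT_EV, 178 and 167 in dKO_EV, 180 and 181 in dKO_MUT and 188 and 179 in dKO_PRMT1, and its difference from dKO_EV was 0.088 ± 0.052 (adjusted p = 0.298).

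Between the empty-vector groups few of these genes differed. In dKO_EV against WT_EV, 5 of the 50 genes fell and none rose, where the background was 7.0% lower and 8.44% higher. The share that fell was thus near the background, and this is not a result about these genes. The median fold change was -0.061 against -0.001 over all genes. The dKO_EV libraries lay below WT_EV for 23 genes, against 26.0% of all genes, and above for 4, against 26.8%. The decreases were -0.25 ± 0.082 for Ncapg (adjusted p = 0.0343), -0.25 ± 0.084 for Cenpf (0.0432), -0.19 ± 0.066 for Ect2 (0.0423), -0.13 ± 0.046 for Mki67 (0.0489) and -0.11 ± 0.036 for Top2a (0.0386). This comparison shares its dKO_EV libraries with the one before, where the same genes differed by 0.25 ± 0.082, 0.33 ± 0.084, 0.21 ± 0.066, 0.37 ± 0.046 and 0.11 ± 0.036. None of the 5 calls held in every fit without 1 library: all were lost without WT_EV replicate 1, at adjusted p of 0.161 to 0.621, and 4 without dKO_EV replicate 2. The count was 0 without WT_EV replicate 1, 2 without WT_EV replicate 2 or dKO_PRMT1 replicate 2, and 3 without dKO_EV replicate 2 or dKO_MUT replicate 2. DESeq2 called 1 of the 5, limma voom 3, and the fit of the 2 groups alone 1.

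With the enzymatically dead mutant, Mki67, Birc5, Nuf2 and Cenpf were higher than with the empty vector. In dKO_MUT against dKO_EV, 4 of the 50 rose and none fell, with a background of 4.24% higher and 7.08% lower. The count was little above that background and is not a result about the 50 genes as a set. The median was 0.077, and the dKO_MUT libraries stood above dKO_EV for 21 genes, against 23.9% of all genes. Birc5, survivin, stood at 97.3 and 104 CPM in WT_EV, 90.8 and 86.6 in dKO_EV, 106 and 111 in dKO_MUT and 101 and 99.4 in dKO_PRMT1. It was highest in dKO_MUT and lowest in dKO_EV, and rose by 0.29 ± 0.065 (adjusted p = 0.00159). Mki67 rose by 0.31 ± 0.046 (adjusted p = 1.07e-05), Nuf2 by 0.30 ± 0.070 (adjusted p = 0.00272) and Cenpf by 0.31 ± 0.084 (adjusted p = 0.0118). Against the same dKO_EV libraries, dKO_PRMT1 gave 0.18 ± 0.065 for Birc5, 0.37 ± 0.046 for Mki67, 0.29 ± 0.070 for Nuf2 and 0.33 ± 0.084 for Cenpf. The call of Cenpf was lost without dKO_EV replicate 1 and without either dKO_MUT library, at an adjusted p of up to 0.15 without dKO_EV replicate 1.

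The wild-type and the dead enzyme were compared directly in dKO_PRMT1 against dKO_MUT. Of the 50 genes 4 rose and none fell, with a background of 1.43% higher and 1.68% lower, and 44 of the 50 fold changes were positive (median 0.085). The dKO_PRMT1 libraries stood above dKO_MUT for 26 genes, against 22.3% of all genes. Aurka stood at 83.8 and 86.2 CPM in WT_EV, 83.9 and 83.3 in dKO_EV, 80.4 and 77.8 in dKO_MUT and 94.0 and 94.4 in dKO_PRMT1. Its dKO_MUT libraries were the lowest of the 8 and its dKO_PRMT1 libraries the highest, and it was higher in dKO_PRMT1 by 0.25 ± 0.067 (adjusted p = 0.0267). Prc1, which bundles the microtubules of the central spindle, stood at 145 and 139 CPM in WT_EV, 134 and 131 in dKO_EV, 133 and 124 in dKO_MUT and 145 and 149.8 in dKO_PRMT1. It was higher by 0.20 ± 0.057 (adjusted p = 0.0472), and its dKO_PRMT1 libraries overlapped WT_EV. Hmmr and Kif11 were higher by 0.25 ± 0.065 (adjusted p = 0.0207) and 0.19 ± 0.049 (adjusted p = 0.0227). All 4 calls were lost when any 1 of the 4 compared libraries was left out, at adjusted p of 0.0573 to 0.428, and the call of Prc1 also without either WT_EV library, in DESeq2 (0.0534) and in limma voom (0.0521). For Mki67 the difference was 0.062 ± 0.046 (adjusted p = 0.633), for Nuf2 -0.007 ± 0.069 (0.983), for Foxm1 0.21 ± 0.076 (0.164) and for Birc5 -0.11 ± 0.064 (0.475). Prmt1 itself was lower in dKO_PRMT1 than in dKO_MUT, by -0.84 ± 0.034, so the groups differ in the level counted at Prmt1 as well as in the insert.

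**Figure D4:**
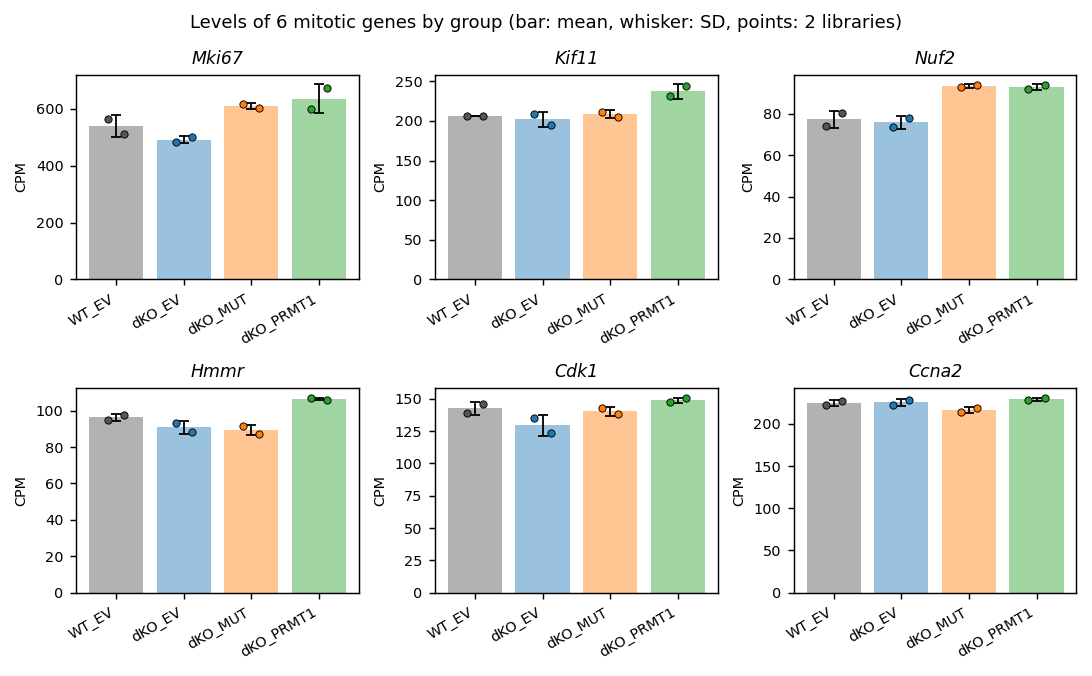
CPM (vertical axis, from 0) of 6 mitotic genes in the 4 groups; bars are means, whiskers SD and points the 2 libraries of each group. Mki67 and Nuf2 are high with both inserts, Kif11 and Hmmr stand highest in dKO_PRMT1, Cdk1 is lowest in dKO_EV, and Ccna2 stays between 214 and 231 CPM.

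Several of these transcripts were also above their wild-type level in dKO_PRMT1. In dKO_PRMT1 against WT_EV, 11 of the 50 rose and none fell, a share above the 11% of all genes that were higher there (12.2% were lower), with a median of 0.099. The largest were Foxm1 at 0.33 ± 0.077 (adjusted p = 0.00105), Spc25 at 0.32 ± 0.11 (0.0297), Nuf2 at 0.27 ± 0.070 (0.00368), Mki67 at 0.24 ± 0.046 (0.000179) and Racgap1 at 0.23 ± 0.052 (0.000928). Plk1, Kif11, Ube2c, Smc4, Kif23 and Incenp rose by 0.14 to 0.20. Only Mki67 and Racgap1 were called in all 8 fits without 1 library (Mki67 missed the threshold in the fit of the 2 groups alone, at an adjusted p of 0.0671, and Spc25 in DESeq2, at 0.0595), and the count was 4 without dKO_PRMT1 replicate 1, 6 without WT_EV replicate 1, and 7 without WT_EV replicate 2 or dKO_PRMT1 replicate 2. In dKO_MUT against WT_EV, 4 rose and none fell, against a background of 9.41% higher and 9.96% lower. The share that rose was not above the background, and the median was 0.014, so this count is not a result about these genes. The 4 were Nuf2 at 0.27 ± 0.070, Racgap1 at 0.21 ± 0.052, Mki67 at 0.18 ± 0.046 and Ube2c at 0.16 ± 0.055, with adjusted p from 0.0033 to 0.0331. Racgap1 was called in all 8 fits, and the count was 2 without either WT_EV library.

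The 112 further mitotic genes leaned the same way in dKO_PRMT1 against dKO_EV, with 19 higher, none lower and a median of 0.12, where 5.96% of all genes were higher. The groups within the list differed: 8 of 26 other spindle and cytokinesis genes, 4 of 14 other condensin and cohesin genes, 4 of 22 other mitotic kinases and regulators, 2 of 32 other kinetochore and centromere genes and 1 of 18 genes of the anaphase-promoting complex. The median was 0.18 for the spindle and cytokinesis genes, 0.11 for condensin and cohesin, 0.14 for the kinetochore, 0.020 for the kinases and regulators and 0.010 for the anaphase-promoting complex. The called shares of the kinetochore genes and of the anaphase-promoting complex lay near the background. Kif15, a kinesin that works beside Kif11, rose by 0.34 ± 0.061 (adjusted p = 6.3e-05). E2f8, a repressor of the E2F family, rose by 0.29 ± 0.053 (adjusted p = 9.45e-05). Kpna2, an importin, rose by 0.21 ± 0.041 (adjusted p = 0.000258). In dKO_EV against WT_EV 7 of the 112 fell and none rose, among them Stmn1, a microtubule destabiliser, by -0.23 ± 0.042 and Smc3, a cohesin subunit, by -0.21 ± 0.049, against 7.0% of all genes that were lower. In dKO_MUT against dKO_EV 5 rose (4.24% of all genes), and in dKO_PRMT1 against dKO_MUT Kif15 and Kpna2 did (1.43% of all genes), by 0.23 ± 0.060 and 0.15 ± 0.041. All 3 counts were near the background.

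The 38 replication genes followed another order. In dKO_EV against WT_EV 12 of them fell and none rose, against 7.0% of all genes lower, with a median of -0.11, and examples were Mcm3, a subunit of the replicative helicase, at -0.23 ± 0.039 (adjusted p = 4.89e-05) and Rrm1, of ribonucleotide reductase, at -0.20 ± 0.039 (0.000267). In dKO_PRMT1 against dKO_EV 9 rose, against 5.96% of all genes, with a median of 0.11, led by Rrm2 at 0.22 ± 0.045 (0.000497) and Cdc45, a helicase cofactor, at 0.32 ± 0.074 (0.00242). In dKO_MUT against dKO_EV 3 rose, against 4.24% of all genes. Between dKO_PRMT1 and dKO_MUT none was called by edgeR, 5 had an unadjusted p under 0.05, and the median was 0.004. Against WT_EV, 3 were higher and 3 lower in dKO_PRMT1, shares below those of all genes (11% higher and 12.2% lower). The summed level of the list was 6029 to 6094 CPM in WT_EV, 5515 to 5551 in dKO_EV, 5814 to 5939 in dKO_MUT and 5917 to 5988 in dKO_PRMT1. The replication genes were thus highest in WT_EV, where the 50 mitotic genes were highest in dKO_PRMT1, and the difference between the lists was not tested.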

How the data were processed

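Total RNA of 8 mouse HSPC libraries was prepared with a directional kit, per the labels' protocols. Trim Galore 0.6.6, STAR 2.7.6a and featureCounts are named with GRCm38 (mm10), per the submitters' processing notes; the sources used here give neither strand setting nor annotation. The authors deposited 1 table of raw counts of reads for each gene and its length. Without the strand setting, genes whose exons overlap another listed gene (6 of the 50, of which 5 on the opposite strand) are uncertain.

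Groups came from the sample titles, since another label calls every library dKO. Tests used edgeR 4.0.16 (R 4.3.3): filterByExpr left 12744 genes, scaling was by TMM, and 1 robust quasi-likelihood model of group alone took in the 8 libraries (4 residual degrees of freedom) for 6 comparisons. The adjusted p threshold was 0.05. The standard error is the absolute fold change over the root of F. Replicates differed by more than sampling noise (chi-square per degree of freedom 3.59 to 6.38), so each counted once.

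The members and lists were chosen with earlier results of these data known. Values in every library are given for members past the threshold in the comparisons of dKO_EV with WT_EV, of dKO_PRMT1 with dKO_EV or of dKO_PRMT1 with dKO_MUT and for the most abundant member of each role (Birc5 was added after its values were seen), and up to 4 called genes are named from each other list, those with the smallest p, of which 1 is not reported here. Promoter sequences came from RefSeq (GRCm38.p6).

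On simulated counts of 12744 genes for dKO_PRMT1 against dKO_EV, the share of changed genes called was 38% for a 1.25-fold change, 72% for 1.5-fold, 86% for 2-fold and 88% for 4-fold, and 13 of 155 calls were unchanged genes. Changes as small as the median of the 50 genes (1.13-fold) were not simulated. The data also held more calls, with 759 genes higher and 1105 lower, so these shares do not carry over to the 50 genes. Alternatives were other scalings and filters, DESeq2 1.42.0, limma 3.58.1 voom, a stricter threshold (0.01), a replicate block, leaving out each library, and a fit of the compared groups alone.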

Additional observations from a re-analysis of the deposited data

How the results depend on the processing

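With 2 libraries a group, the counts of called genes depended on single libraries. Leaving out each library in turn, dKO_EV against WT_EV gave 0 to 4 called members in place of 5, dKO_PRMT1 against dKO_EV 6 to 23 in place of 21, dKO_MUT against dKO_EV 3 to 5 in place of 4, dKO_PRMT1 against dKO_MUT 0 to 4 in place of 4, dKO_PRMT1 against WT_EV 4 to 11 in place of 11, and dKO_MUT against WT_EV 2 to 5 in place of 4. The medians ranged from -0.081 to -0.046, 0.14 to 0.19, 0.043 to 0.11, 0.069 to 0.10, 0.075 to 0.12 and -0.013 to 0.022 in the same order. The one change of direction was the median of dKO_MUT against WT_EV, at 0.014 in the full fit and -0.013 without dKO_MUT replicate 1; the cause was not tested.

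For dKO_EV against WT_EV, 1 member was called by DESeq2, 3 by limma voom, 1 in the fit of the compared groups alone and 0 at a threshold of 0.01. At that threshold dKO_PRMT1 against dKO_EV kept 7 and dKO_PRMT1 against dKO_MUT 0. Under the other scalings the median of all genes stayed within 0.005 of 0. Same-numbered libraries did not deviate together (correlation across genes -0.0281 to 0.00476 between groups), so the numbers were not used as pairs. The mitotic genes called were kept as follows: in dKO_PRMT1 against dKO_EV 17 of 21 by DESeq2 and 16 of 21 in the fit of the compared groups alone, in dKO_PRMT1 against dKO_MUT 3 of 4 by DESeq2 and 3 of 4 by limma voom, and in dKO_PRMT1 against WT_EV 10 of 11 by DESeq2 and 10 of 11 with the other groups left out. A replicate block gave 4 called members in dKO_EV against WT_EV, 21 in dKO_PRMT1 against dKO_EV, 4 in dKO_MUT against dKO_EV, 4 in dKO_PRMT1 against dKO_MUT, 11 in dKO_PRMT1 against WT_EV and 4 in dKO_MUT against WT_EV. Counts over the further mitotic, replication and marker genes were not recomputed under the alternatives.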
